A study of Homo sapiens with 6 samples.

Results

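The 10 genes described here encode the core transcription factors of the red cell lineage: GATA1, GATA2, KLF1, TAL1, LMO2, LDB1, NFE2, ZFPM1, GFI1B and BCL11A. They were chosen by gene symbol, from a fixed list of names, out of 17687 distinct symbols on the array. The list was drawn up with earlier results of these data known. Each gene was read by 1 probe set, a group of probes summarised to a single value. The cells were K562, a human erythroleukaemia cell line, and carried either a control vector (3 arrays; control cells below) or a vector that overexpresses the microRNA miR-543 (3 arrays; miR-543 cells below). Beyond the vector, the labels give both groups the same line, source tissue (bone marrow) and extraction by Trizol. They do not say what the vectors are, how they were delivered, for how long, or whether replicates were separate cultures, and every p-value here therefore reflects the scatter of these arrays alone, some or all of which may be technical. No probe set carried the name MIR543 (0 of 21448), so the level of the microRNA itself was not analysed here.

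Red cell genes are switched on by a small set of DNA-binding proteins that work in assemblies. GATA1 binds GATA motifs and recruits the cofactor ZFPM1 (also called FOG1), while GATA2 occupies many of the same motifs in earlier progenitors. TAL1 binds E-box motifs with a partner E protein, and the adaptors LMO2 and LDB1 join it to GATA1 and loop distant enhancers to promoters. KLF1 binds CACC motifs at globin, membrane and heme genes, and NFE2 binds the globin locus control region with a small MAF protein. GFI1B and BCL11A are repressors, the latter known for silencing the fetal globin genes.

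The microRNA is shown because it is the agent that separates the groups. Its mature sequence, from RefSeq on GRCh38.p14 (chr14:101032033-101032054, plus strand), is given with the seed, bases 2 to 8, in capitals.
hsa-miR-543: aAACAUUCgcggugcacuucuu
Of the 2370 mature microRNAs in that table, 1 had this seed, miR-543 itself.

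A microRNA acts on mRNA and not on promoters, and the promoters bear on a different point, the binding motifs that these factors share. Promoter windows of 300 bases, 250 before to 50 after an annotated start, were matched in RefSeq for 8 of the 10 genes (all but LMO2 and NFE2). For each of these genes only the first listed window was read, so any other annotated start was not searched. The shares over all windows count every window. The GATA motif was searched only as AGATAA or TGATAA, on both strands. These forms were found in 2 of these 8 windows, those of KLF1 and TAL1, and in 16.3% of all 35116 windows. Forms ending in G were not searched or counted. AGATAG occurs in the GFI1B window, and TGATAG on the opposite strand in that of KLF1. The KLF1 and TAL1 sequences are shown because these genes had the largest changes described below. Capitals mark the searched GATA forms and the CACC motif, searched as CCACCC on both strands.
KLF1 promoter, chr19:12887152-12887451, minus strand: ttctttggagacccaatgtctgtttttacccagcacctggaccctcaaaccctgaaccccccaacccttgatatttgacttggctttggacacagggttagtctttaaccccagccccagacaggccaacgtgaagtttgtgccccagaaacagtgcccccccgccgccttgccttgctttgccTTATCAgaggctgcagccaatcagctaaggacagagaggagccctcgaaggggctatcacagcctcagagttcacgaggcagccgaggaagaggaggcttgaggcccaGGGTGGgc
TAL1 promoter, chr1:47232286-47232585, minus strand: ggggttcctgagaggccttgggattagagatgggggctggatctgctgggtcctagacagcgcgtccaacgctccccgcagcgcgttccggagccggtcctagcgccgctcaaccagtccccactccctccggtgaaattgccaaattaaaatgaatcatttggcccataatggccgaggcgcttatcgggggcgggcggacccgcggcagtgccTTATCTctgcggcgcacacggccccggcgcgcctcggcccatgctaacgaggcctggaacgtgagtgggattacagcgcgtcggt
With the start base counted as 0, the GATA match began at -66 in KLF1 and at -35 in TAL1, each on the strand opposite to the gene. CCACCC was found in 5 of the 8 windows against 34.3% of all windows, with 3 matches in GATA1, 2 in GATA2 and 1 each in KLF1, LDB1 and BCL11A. The E-box CANNTG was found in 4 of 8 against 68.7% of all windows. TGANTCA, a looser pattern than the NFE2 core TGA(G/C)TCA, was found in 1 of 8 (TAL1) against 7.71%. The TAL1 match read TGAATCA, which is not the NFE2 core, and the narrower core was not counted separately. Matches of different motifs were counted independently, whether or not they overlapped. These matches describe letters in the windows and not occupied sites.

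The values are log2 signals by RMA, a method that corrects background, normalizes between arrays and summarises probes. Array medians lay between 5.99 and 6.01, lower quartiles between 3.98 and 4.03, and upper quartiles between 9.61 and 9.66. No detection calls were used. Signals of different probe sets depend on their probes, so a gene is compared with itself between the groups and placed only against the quartiles of its array. Red cell markers fitted the label of the line: of 6 measured, HBA1, HBE1, HBZ, TFRC and ALAS2 lay above the upper quartile on all arrays, and EPOR, the erythropoietin receptor, averaged 6.31 ± 0.587 in control cells and 6.46 ± 0.0666 in miR-543 cells (SD, n = 3). Of the markers of other cell types, EPCAM, KRT8 and KRT19 of epithelial cells, LYZ and CD68 of macrophages and CD3D of T cells also lay above the upper quartile on all arrays of both groups, while CD3E and CD2 of T cells and CD14 of monocytes lay below the median on all of them. The mean signal of the red cell markers was 13.3 to 13.6 on the control arrays and 13.6 to 13.7 on the miR-543 arrays, and that of 5 megakaryocyte markers 4.85 to 5.13 and 5.12 to 5.21. Of the markers of all types 0 were called as different. Of those of other lineages, ITGA2B and PF4 of megakaryocytes and CD3D had the miR-543 arrays all above the control arrays, with log2 changes of 0.72, 0.41 and 0.64 (limma adjusted p = 0.235, 0.404 and 0.184; named after their values were seen). So did LUM of fibroblasts and KRT8 (0.32 and 0.15), and KRT19 had them all below (-0.15). The other measured megakaryocyte markers, GP9, PPBP and GP1BA, overlapped between the groups, with log2 changes of -0.08, -0.29 and 0.02. So did the other measured T cell markers, CD3E and CD2, with log2 changes of -0.08 and 0. The part of these markers in the results below was not tested.

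Changes are given as the log2 signal in miR-543 cells minus that in control cells, from limma fitted to all 21448 probe sets, and a gene was called at a Benjamini-Hochberg adjusted p under 0.05 over all of them. Of the 10 transcription factors 0 were called, beside 0.569% of all probe sets. At an unadjusted p under 0.05 there were 3, beside 10.6% of all probe sets, and limma with trend and robust settings also called 0. The same 3 genes, KLF1, TAL1 and NFE2, had all 3 miR-543 arrays above all 3 control arrays (30% of the members, beside 7.89% of all probe sets). The other 7 genes overlapped between the groups and had log2 changes between -0.18 and 0.02. The median change of the 10 was -0.02 and that of all probe sets 0.01.

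**Figure D1:**
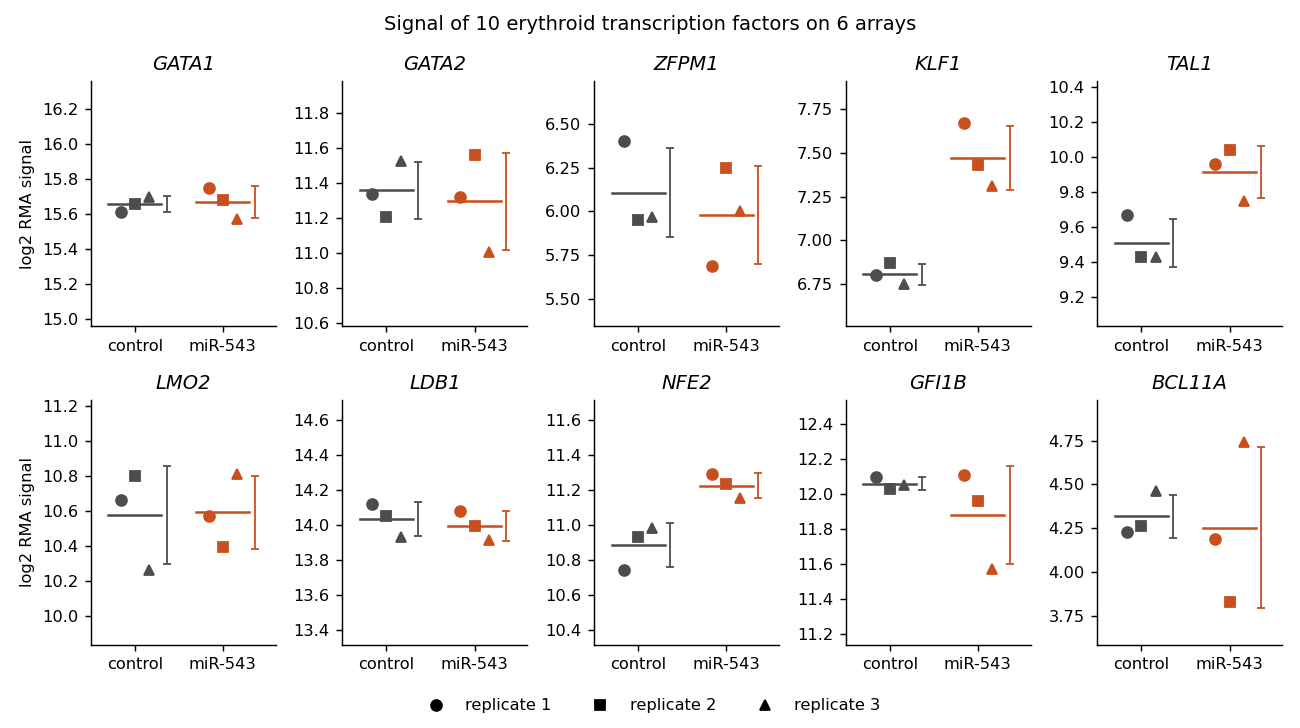
Log2 RMA signal of each of the 10 transcription factors on the 3 control and 3 miR-543 arrays, with a symbol per replicate number, a horizontal line at the group mean and a bar of 1 SD to each side. Every panel spans the same range of log2 units around its own level. KLF1, TAL1 and NFE2 show no overlap between the groups, and the other 7 genes do.

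KLF1, the factor that drives globin and red cell membrane genes late in differentiation, had the largest change. Its signals were 6.80, 6.87 and 6.75 in control cells and 7.67, 7.43 and 7.31 in miR-543 cells. The highest control array and the lowest miR-543 array were 0.44 apart, more than the range of either group (0.12 and 0.36). The means of 6.81 ± 0.0603 and 7.47 ± 0.183 (SD, n = 3) differed by 0.66 on the log2 scale (SE 0.15, 95% interval 0.34 to 0.99), which is 158% of control. By limma the unadjusted p was 9.91e-04 and the adjusted p 0.106, so KLF1 was not called, and 201 was its rank by p among all probe sets. When limma was fitted only to the 10724 probe sets above the 50th percentile of mean signal, 168 were called, KLF1 among them (adjusted p = 0.0378). Its adjusted p ranged from 0.0378 to 0.333 over 13 alternative settings. Above the 25th percentile, a setting chosen after seeing the data, the adjusted p was 0.0802. KLF1 lay above the array median and below the upper quartile on all 6 arrays.

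**Figure D2:**
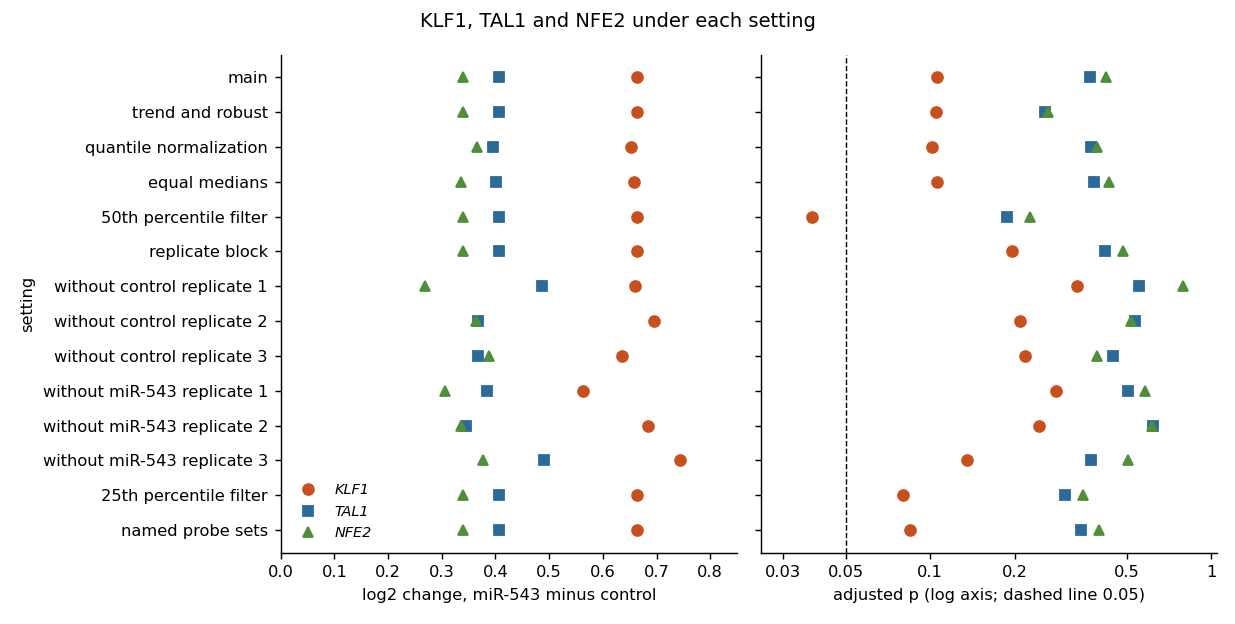
Log2 change (left) and adjusted p on a log axis (right) of KLF1, TAL1 and NFE2 under the main setting and 13 alternatives, with a dashed line at 0.05. The changes stay above 0 throughout, and a single point, KLF1 with the 50th percentile filter at 0.0378, lies left of the line.

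TAL1, the E-box factor that assembles the enhancer complex, had signals of 9.67, 9.43 and 9.43 in control cells and 9.96, 10.04 and 9.75 in miR-543 cells. The groups were separate by a gap of 0.08, smaller than the range within either group (0.24 and 0.29). TAL1 differed by 0.41 on the log2 scale (SE 0.15, 95% interval 0.08 to 0.73), which is 133% of control, and was not called (limma adjusted p = 0.371). The interval reached below 0 without control replicate 2 or 3 or miR-543 replicate 1 or 2 (lower ends of -0.01, -0.01, -0.01 and -0.03). The adaptors LMO2 and LDB1 overlapped between the groups, and TCF3, an E protein that pairs with TAL1, was separate, at 10.60, 10.50 and 10.27 in control cells and 10.63, 10.63 and 10.81 in miR-543 cells (log2 change 0.23, limma adjusted p = 0.633; named after its values were seen), while the E proteins TCF12 and TCF4 overlapped. LMO2, the LIM-domain adaptor between TAL1 and GATA1, had signals of 10.66, 10.80 and 10.26 in control cells and 10.57, 10.39 and 10.81 in miR-543 cells. Its log2 change was 0.02 (95% interval -0.38 to 0.42; adjusted p = 0.988), and the lowest of the 6 arrays was a control array and the highest a miR-543 array by 0.01.

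LDB1, which dimerises and brings enhancer and promoter together, had signals of 14.12, 14.05 and 13.93 in control cells and 14.08, 13.99 and 13.91 in miR-543 cells. The groups interleaved, with SDs of 0.0961 and 0.0851 (n = 3). The log2 change was -0.04 (95% interval -0.34 to 0.26, limma adjusted p = 0.95), an interval of 78.9% to 120% of the control signal.

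NFE2, the hematopoietic subunit of the dimer that binds the globin locus control region, had signals of 10.74, 10.93 and 10.98 in control cells and 11.29, 11.23 and 11.15 in miR-543 cells. The groups were 0.17 apart, and the miR-543 arrays were the tighter of the groups (SD 0.0702 against 0.127, n = 3). The difference was 0.34 on the log2 scale (SE 0.14, 95% interval 0.03 to 0.65), which is 127% of control, and NFE2 was not called (limma adjusted p = 0.423). Its interval reached below 0 without control replicate 1 (-0.09 to 0.62), miR-543 replicate 1 (-0.06 to 0.68) or miR-543 replicate 2 (-0.03 to 0.71). With all arrays kept and the replicate number as a block, it also did (-0.008 to 0.69).

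GATA1, the master regulator of red cell and megakaryocyte genes, had signals of 15.61, 15.66 and 15.70 in control cells and 15.75, 15.68 and 15.57 in miR-543 cells. The highest and the lowest of the 6 were both miR-543 arrays. The means of 15.66 ± 0.0451 and 15.67 ± 0.0907 (SD, n = 3) differed by 0.01 (95% interval -0.29 to 0.31, limma adjusted p = 0.991). As array signal, and by the scatter of these arrays alone, that interval is 82% to 124% of control.

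GATA2, the progenitor factor that GATA1 displaces and silences as red cells mature, had signals of 11.34, 11.21 and 11.53 in control cells and 11.32, 11.56 and 11.01 in miR-543 cells. Both groups spread around the same level, the miR-543 arrays more widely. Its log2 change was -0.06 (95% interval -0.45 to 0.32; adjusted p = 0.935). Within each array the signal of GATA2 minus that of GATA1 averaged -4.30 ± 0.142 in control cells and -4.37 ± 0.226 in miR-543 cells (SD, n = 3), a difference of -0.07 (two-sided exact permutation p = 0.8, and 0.8 adjusted over 2 such tests). With 3 arrays against 3 the smallest p of this test is 0.1, so it could not pass 0.05.

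ZFPM1, the cofactor that GATA1 needs at many of its sites, had signals of 6.40, 5.95 and 5.97 in control cells and 5.69, 6.25 and 6.0 in miR-543 cells. It lay around the array median, above it on 3 of 6 arrays, and the groups overlapped. ZFPM1 had a log2 change of -0.13 (95% interval -0.54 to 0.29; adjusted p = 0.872).

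GFI1B, a zinc finger repressor that recruits histone demethylase and deacetylase to red cell and platelet genes, had signals of 12.10, 12.03 and 12.05 in control cells and 12.11, 11.96 and 11.57 in miR-543 cells. The control arrays were tight (SD 0.0361, n = 3), and 1 miR-543 array, replicate 3, lay below the rest. The log2 change was -0.18 (95% interval -0.54 to 0.18; adjusted p = 0.763), and without miR-543 replicate 3 it was -0.03. BCL11A, the repressor of fetal globin, had signals of 4.23, 4.26 and 4.46 in control cells and 4.19, 3.83 and 4.74 in miR-543 cells. All 6 values lay below the array median and near the lower quartiles of 3.98 to 4.03, and the miR-543 arrays held both the highest and the lowest of them. The log2 change was -0.06 with the widest interval of the 10 genes (-0.54 to 0.41; adjusted p = 0.95). KLF1 is known to activate BCL11A, and the signal of BCL11A minus that of KLF1 within each array went from -2.49 ± 0.174 to -3.22 ± 0.563 (SD, n = 3), a difference of -0.73 (two-sided exact permutation p = 0.3, adjusted over both tests 0.6). The groups overlapped in this measure.

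**Figure D3:**
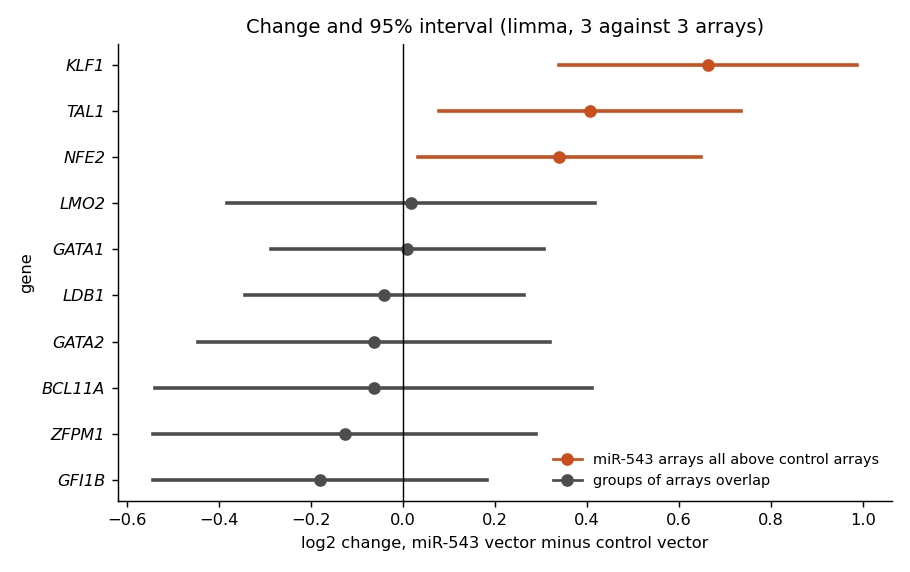
Log2 change of each transcription factor (miR-543 minus control) with its 95% interval from limma on 3 against 3 arrays. Orange marks genes whose miR-543 arrays all lay above the control arrays. The intervals of KLF1, TAL1 and NFE2 exclude 0 before adjustment for multiple tests, and the intervals of the other 7 genes include it.

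The 7 genes whose groups overlapped had intervals that together ran from -0.54 to 0.42 on the log2 scale, or from 68.7% to 133% of control. Across the 10 genes no array stood apart as a whole. The median deviation of the 10 from their group means was between -0.03 and 0.02 on the control arrays and between -0.09 (replicate 3) and 0.06 (replicate 1) on the miR-543 arrays. On miR-543 replicate 3, 7 of the 10 lay below their group mean, the exceptions being LMO2, ZFPM1 and BCL11A.

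Proteins that work with these factors were compared as a group of partners and corepressors. Of 35 listed genes 30 were measured, 13 of them above 0 and 17 below (median -0.04), and 0 were called. At an unadjusted p under 0.05 there were 2, beside 10.6% of all probe sets. Of all 21448 probe sets, 11217 lay above 0 and 10095 below, for this list and those that follow. MED1, a Mediator subunit that GATA1 contacts, went from 9.58 ± 0.197 to 9.12 ± 0.0902 (SD, n = 3), a log2 change of -0.45 (adjusted p = 0.317), with all miR-543 arrays below the control arrays. CBFA2T2, a corepressor of the ETO family, had a log2 change of 0.41 (adjusted p = 0.449), with all miR-543 arrays above the control arrays. LYL1, the close relative of TAL1 that can stand in for it, had one of 0.30 (adjusted p = 0.517), also with all of them above. The deacetylase HDAC2 had one of -0.30 (adjusted p = 0.571), and its groups overlapped. Of the 30 genes, 3 had the miR-543 arrays all above the control arrays (beside 7.89% of all probe sets). All below were those of 1 gene (beside 1609 of 21448 probe sets).

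Genes that GATA1, TAL1 or KLF1 are known to activate in red cells were the next list. Of 32 listed 26 were measured, 16 of them above 0 and 10 below (median 0.07, beside 0.01 for all probe sets), and 0 were called. At an unadjusted p under 0.05 there were 3, beside 10.6% of all probe sets. KEL, a red cell surface antigen, went from 9.73 ± 0.25 to 10.38 ± 0.235 (SD, n = 3), a log2 change of 0.65 (adjusted p = 0.222). ALAS2, the first enzyme of heme synthesis in red cells, had a log2 change of 0.40 (adjusted p = 0.385), and HBA1, an alpha globin gene with a near-identical copy, one of 0.31 (adjusted p = 0.506). The anion exchanger SLC4A1 had one of 0.47 (adjusted p = 0.379) at a control mean of 3.50, below the lower quartiles of the arrays, so its size is uncertain. Of the whole list, 5 of 26 genes had the miR-543 arrays above the control arrays (beside 7.89% of all probe sets). They were these 4 and HBA2, the copy of HBA1 (log2 change 0.30, limma adjusted p = 0.509). HBA1 and HBA2 had nearly the same signal on every array, so they may not count separately. The survival gene BCL2L1 had the miR-543 arrays below (log2 change -0.33, limma adjusted p = 0.515), beside 1609 of 21448 probe sets. HBA2 and BCL2L1 were named after their values were seen.

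Genes that fall when GATA1 takes over from GATA2, or that oppose it, were listed as repressed targets. Of 10 measured of 10, 7 lay above 0 and 3 below (median 0.07), and 0 were called. At an unadjusted p under 0.05 there was 1, beside 10.6% of all probe sets. The cell cycle kinase CDK6 had a log2 change of -0.40 (adjusted p = 0.456). FLI1, which favours megakaryocytes, had one of 0.29 (adjusted p = 0.6) at a control mean of 4.63, below the array medians. SPI1, which directs myeloid cells and antagonises GATA1, had one of 0.23 (adjusted p = 0.724), and LYL1, named above, is also on this list.

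Regulators of the fetal globin switch, in which BCL11A acts, had 7 of 15 measured genes above 0 and 8 below (17 listed, median -0.01). None were called, and 2 had an unadjusted p under 0.05, beside 10.6% of all probe sets. LIN28B, a fetal RNA-binding protein that lowers BCL11A, had a log2 change of -0.43 (adjusted p = 0.373), with all miR-543 arrays below the control arrays. IKZF1, a lymphoid and erythroid zinc finger factor, had one of 0.36 (adjusted p = 0.451), with all miR-543 arrays above the control arrays. NFIA had one of 0.36 (adjusted p = 0.479) and DNMT1, the maintenance methyltransferase, one of -0.25 (adjusted p = 0.637), and their groups overlapped. Of the 15 genes, 1 was separate upward (beside 7.89% of all probe sets) and 1 downward (beside 1609 of 21448 probe sets).

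Paralogs of the 10 factors were listed to see how the families behaved. Of 31 measured of 32, 18 lay above 0 and 13 below (median 0.10), and 0 were called. At an unadjusted p under 0.05 there were 3, beside 10.6% of all probe sets. Only 13 of the 31 lay above the array median on all arrays, so many of these changes are of low signals. Of the 3 relatives of NFE2, NFE2L1 had a log2 change of 0.10 (adjusted p = 0.85; named after its values were seen), and NFE2L2 and NFE2L3 lay below 0. NFE2L2, the oxidative stress factor also called NRF2, had signals of 12.44, 11.96 and 11.79 in control cells and 11.59, 11.50 and 11.57 in miR-543 cells. All miR-543 arrays lay below the control arrays, the control arrays were spread (SD 0.337, n = 3), and the log2 change was -0.51 (95% interval -0.90 to -0.12; adjusted p = 0.35). NFE2L3 had a log2 change of -0.46 (adjusted p = 0.347), also with separate groups, and the difference between NFE2 and its relatives was not tested. Among the listed KLF paralogs KLF7 had the smallest p, with a log2 change of 0.42 (adjusted p = 0.465). LYL1 is on this list too. Of the 31 genes, 2 were separate upward (beside 7.89% of all probe sets) and 2 downward (beside 1609 of 21448 probe sets).

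**Figure D4:**
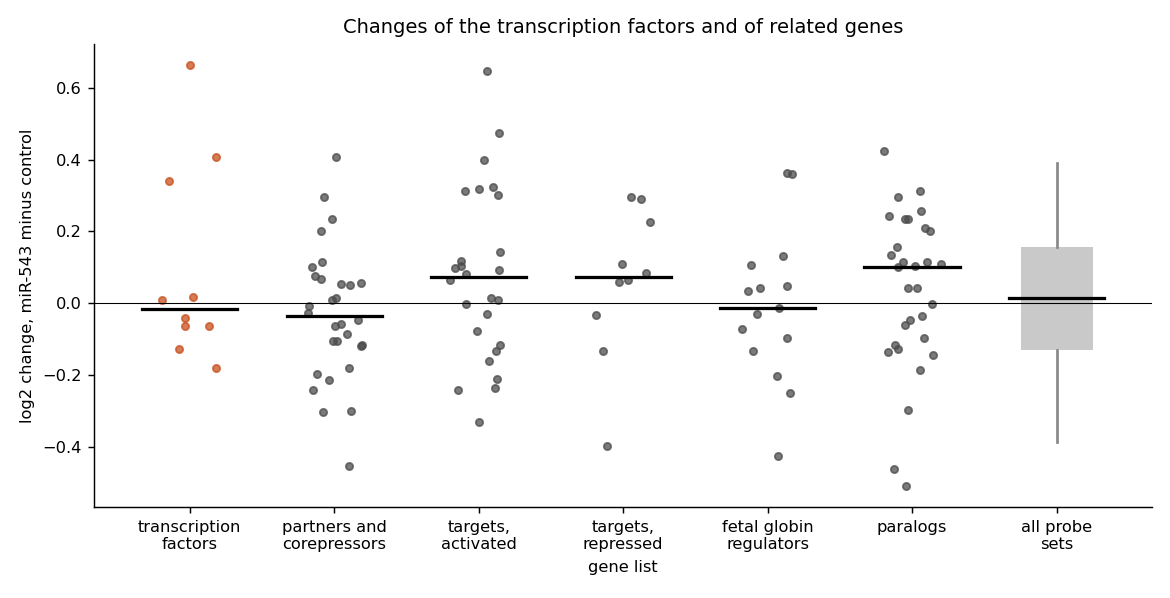
Log2 change of each measured gene in the 10 transcription factors (orange) and in 5 lists of related genes (grey), with a black line at each median. The bar for all probe sets runs from the 25th to the 75th percentile (-0.13 to 0.16) and its lines to the 5th and 95th (-0.39 and 0.39). The list medians lie between -0.04 and 0.10.

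By rule, the 5 genes whose profile over the 6 arrays was nearest to that of KLF1 were also found, among 17708 other named probe sets, by the root mean square distance between log2 signals centred on their means. They were LRIG2 (distance 0.06), LAPTM5 (0.06), TTLL9 (0.09), CTTNBP2NL (0.10) and PREB (0.10). LRIG2, a membrane protein with leucine-rich repeats, had signals of 8.18, 8.22 and 8.19 in control cells and 8.96, 8.78 and 8.78 in miR-543 cells. LAPTM5, a lysosomal protein of blood cells, had signals of 14.69, 14.81 and 14.50 in control cells and 15.53, 15.32 and 15.13 in miR-543 cells, so that, as for KLF1, miR-543 replicate 1 was the highest array. Their log2 changes were 0.64 and 0.66, and all 5 had changes of 0.50 to 0.66 with adjusted p-values between 0.0824 and 0.218. None of the 10 transcription factors was among the 5. These genes were picked for likeness on the same arrays, so their changes are a description.

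**Figure D5:**
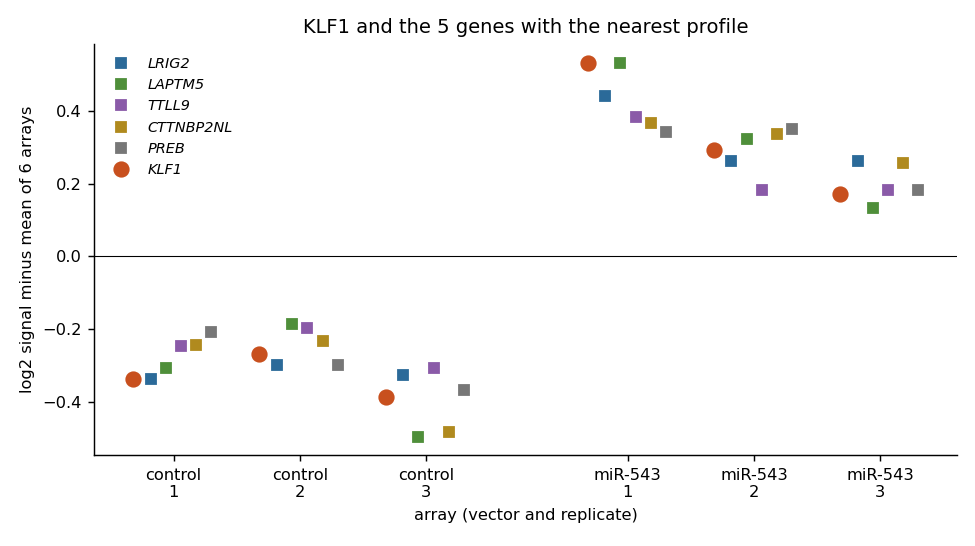
Log2 signal minus its mean over the 6 arrays for KLF1 (orange circles) and the 5 genes with the nearest profile (squares), by array. All 6 genes lie below 0 on the 3 control arrays and above 0 on the 3 miR-543 arrays.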

How the data were processed

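Total RNA of K562 cells was hybridised as biotin-labelled cDNA to 6 single-colour arrays. The deposited values are log2 signals per probe set, made by the authors with RMA and Transcriptome Analysis Console 4.0, per the submitters' processing notes; the RMA variant, annotation release and build are not given in the sources used here. Symbols came from the platform annotation, updated through the gene identifier (17709 of 21448 probe sets had 1 symbol, 3739 none). The test was limma 3.58.1 under R 4.3.3 (lmFit and eBayes, no filter or block, all probe sets), two-sided, with Benjamini-Hochberg adjustment. Steps were tested on simulated data with known changes. There, 6% of log2 changes of 0.5 and 66% of those of 1 were called, and 3 of 135 calls were false. A gene that was not called may therefore still have changed by such amounts. The number of arrays limits the precision. Same-numbered replicates shared no label of pairing, and none was used. Alternatives were trend and robust moderation, rescaling, filters, a replicate block and leaving out each array. All 10 factors were named, with up to 4 genes of smallest p per list and the 5 nearest to the member of largest change. The members and lists were chosen with earlier results of these data known; lists came from general knowledge.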

Additional observations from a re-analysis of the deposited data

How the results depend on the processing

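KLF1, TAL1, NFE2 and GFI1B kept their direction under all 13 alternatives. KLF1 passed under 1 of them, the 50th percentile filter (log2 change 0.66, adjusted p = 0.0378), which made the count of called members 1. That filter left 10724 probe sets, of which 168 were called. Because limma was refitted to these, the SE of KLF1 also differed, at 0.131 beside 0.146 in the main fit. Leaving out single arrays turned the sign of 6 genes: GATA1 ranged from -0.032 to 0.058, GATA2 from -0.20 to 0.08, LMO2 from -0.14 to 0.13, LDB1 from -0.092 to 0.0033, ZFPM1 from -0.26 to 0.02 and BCL11A from -0.31 to 0.15. The arrays whose removal did so were control 1 and miR-543 1 for GATA1 (-0.013, -0.032) and ZFPM1 (0.02, 0.018), control 3 and miR-543 3 for GATA2 (0.022, 0.08) and LMO2 (-0.14, -0.093), control 1 and miR-543 3 for LDB1 (0.0033, 0.0017), and control 3 and miR-543 2 for BCL11A (0.0083, 0.15). Of all probe sets 122 were called, 252 with trend and robust settings, 71 with the replicate block and 34 to 59 with an array left out; the cause was not tested. Deviations of same-numbered arrays had correlations of 0.09, -0.05 and 0.02, beside -0.09 to 0.07 for other-numbered arrays. With 3 arrays per group, such values cannot show whether same-numbered arrays were paired. The replicate block changed no member's call (KLF1 adjusted p = 0.196). The 5 related lists held 0 called genes under all alternatives run for them. The 50th percentile filter removed BCL11A, and as every member had 1 probe set the alternative of several gave no value. Without detection calls, signal over background limits BCL11A, ZFPM1 and SLC4A1.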
